A study of Mus musculus with 4 samples.

Results

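Expression of 10 genes of natural killer cells and cytotoxic lymphocytes is described here in mouse lung tumours that carried or lacked Nrf2. They were picked by name: the granule genes Gzma, Gzmb, Prf1 and Nkg7, the receptor genes Klrd1, Klrb1c, Klrk1 and Ncr1, the cytokine gene Ifng and the transcription factor gene Eomes. All 10 had a row among the 35275 gene identifiers of the deposited FPKM table (fragments per kilobase of gene and per M reads, where 1 M is 1e6). The libraries came from Balb/c mice labelled Nrf2 +/+ (wild type, 2 libraries) or Nrf2 -/- (knockout, 2 libraries). Every mouse had been given the carcinogen vinyl carbamate at 16 mg/kg, in 2 or 4 doses, and tumours were taken 40 to 44 weeks after its start. Each library pooled 3 to 4 tumours, and the doses, weeks and tumours of a given library, the knockout allele and the age of the mice were not given in the sources used here. The comparison asks how advanced tumours differ when Nrf2, a transcription factor that drives antioxidant genes, is missing.

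Natural killer cells and cytotoxic T cells kill by releasing granules at the contact with a target cell. Perforin opens the target's membrane to granzymes, serine proteases that start cell death. Natural killer cells choose targets by weighing activating receptors, such as NKG2D, against inhibitory ones that read MHC class I molecules, and both cell types secrete interferon-gamma, which raises antigen presentation. Most of these genes are shared between natural killer cells and activated T cells, so that none of Gzma, Nkg7, Klrd1 or Klrk1 marks natural killer cells alone, while Ncr1 is the most restricted.

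Depth was modest for genes this low. The totals worked out for the libraries were 21.66 and 21.22 M reads in wild type 1 and 2, and 17.98 and 16.89 M in knockout 1 and 2. Whole reads could be recovered from the FPKM values, and of the 40 values (10 genes in 4 libraries) 31 rested on 20 reads or fewer. Nfe2l2, which encodes Nrf2, stood at 96.3 and 87.9 FPKM in wild type 1 and 2 and at 3.66 and 2.96 FPKM in knockout 1 and 2, as labelled. Sftpc, the defining gene of alveolar type 2 cells, stood at 75200 to 90500 FPKM. A two-sided exact permutation test of 2 against 2 has 0.333 as its smallest p, so every p-value given is from limma's model over all tested genes.

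The promoter sequences of 5 of the genes are shown because they hold letters of the motifs described next, and because 4 of them (Gzma, Prf1, Klrk1 and Ncr1) lay higher in both knockout libraries, whereas Gzmb did not. Each is the stretch of 250 bases before the RefSeq start (GRCm38.p6), read 5′ to 3′ on the gene's strand: Gzma at chr13:113100982-113101231 (minus strand), Prf1 at chr10:61297586-61297835 (plus strand), Gzmb at chr14:56262335-56262584 (minus strand), Klrk1 at chr6:129623865-129624114 (minus strand) and Ncr1 at chr7:4337465-4337714 (plus strand). Capitals mark the letters of 4 motifs searched on both strands. They are TGTGGT, the core bound by RUNX factors, AGGAAG, a core bound by ETS factors, AGGTGTGA, a site type of T-box factors such as EOMES and T-bet, and TGACNNNGC, the core of the antioxidant response element that Nrf2 binds.
Gzma: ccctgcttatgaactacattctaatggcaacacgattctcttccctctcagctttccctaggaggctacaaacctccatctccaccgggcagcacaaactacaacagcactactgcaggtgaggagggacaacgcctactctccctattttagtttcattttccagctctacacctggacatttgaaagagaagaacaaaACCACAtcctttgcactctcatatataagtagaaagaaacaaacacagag
Prf1: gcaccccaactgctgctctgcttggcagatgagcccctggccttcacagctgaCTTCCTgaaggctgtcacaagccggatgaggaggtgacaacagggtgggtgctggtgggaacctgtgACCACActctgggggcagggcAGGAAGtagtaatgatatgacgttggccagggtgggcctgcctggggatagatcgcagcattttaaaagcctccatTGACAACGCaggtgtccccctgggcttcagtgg
Gzmb: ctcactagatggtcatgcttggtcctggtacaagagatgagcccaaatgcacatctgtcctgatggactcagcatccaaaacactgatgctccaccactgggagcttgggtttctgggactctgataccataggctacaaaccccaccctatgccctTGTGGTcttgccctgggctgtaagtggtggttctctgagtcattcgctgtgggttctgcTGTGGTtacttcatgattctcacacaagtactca
Klrk1: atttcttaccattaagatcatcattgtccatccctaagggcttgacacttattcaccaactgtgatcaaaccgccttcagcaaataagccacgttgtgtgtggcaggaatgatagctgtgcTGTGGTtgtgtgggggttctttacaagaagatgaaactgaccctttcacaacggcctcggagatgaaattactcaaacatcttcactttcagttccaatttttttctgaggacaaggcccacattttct
Ncr1: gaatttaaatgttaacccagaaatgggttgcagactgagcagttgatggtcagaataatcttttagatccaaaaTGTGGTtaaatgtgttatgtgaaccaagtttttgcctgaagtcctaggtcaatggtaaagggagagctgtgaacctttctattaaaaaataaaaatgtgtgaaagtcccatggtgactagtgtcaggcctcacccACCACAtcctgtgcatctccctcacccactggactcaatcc

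RefSeq gave such a window for 9 of the 10 genes, with Klrd1 not among them. The RUNX core was present in 7 of the 9 (Gzma, Gzmb, Prf1, Nkg7, Klrb1c, Klrk1 and Ncr1) and in 14.0% of all 32851 windows. Gzmb held it in 2 places, 93 to 88 and 34 to 29 bases before the start. The ETS core was present in 3 of the 9 (Prf1, Nkg7 and Klrb1c) and in 29.5% of all windows. The T-box site was found, among the 9, only in Nkg7 (not printed), 14 to 7 bases before the start, and in 1.12% of all windows. The antioxidant core was found, among the 9, only in Prf1, 33 to 25 bases before the start, and in 10.2% of all windows. These are matches of letters, not measured binding, and no motif overlapped another in the windows printed.

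All 10 genes were low in every library. Ordered by the mean FPKM of the 4 libraries, Gzma led at 2.43, followed by Nkg7 at 1.36, Klrd1 at 1.17 and Klrk1 at 0.628. Prf1 at 0.313, Ncr1 at 0.307, Klrb1c at 0.283 and Gzmb at 0.267 formed a close group whose values overlapped between libraries. Ifng at 0.0995 and Eomes at 0.0827 came last, also with overlapping values. Of the 21601 genes above 0 in any library, 47.7% were at or below the mean of Gzma and 19.2% at or below that of Eomes. Nkg7 and Klrd1 did not differ beyond their spread in wild-type tumours, at 0.957 ± 0.164 and 0.633 ± 0.431 FPKM (SD, n = 2 each). In bulk tumour RNA, fewer cells of a type and less RNA per cell cannot be told apart.

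For 8 of the 10 genes, each knockout library stood above each wild-type library, and for 0 it was the reverse. The same was true of 22.4% of all 21601 genes above 0 in any library, with 19.3% lower. The groups of Gzmb and Eomes overlapped. Summed over the 10 genes, there were 105 and 97 reads in wild type 1 and 2 and 186 and 176 reads in knockout 1 and 2, although the knockout libraries were the shallower ones. In reads per M reads of the library, that is 4.85 and 4.57 against 10.3 and 10.4.

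**Figure D1:**
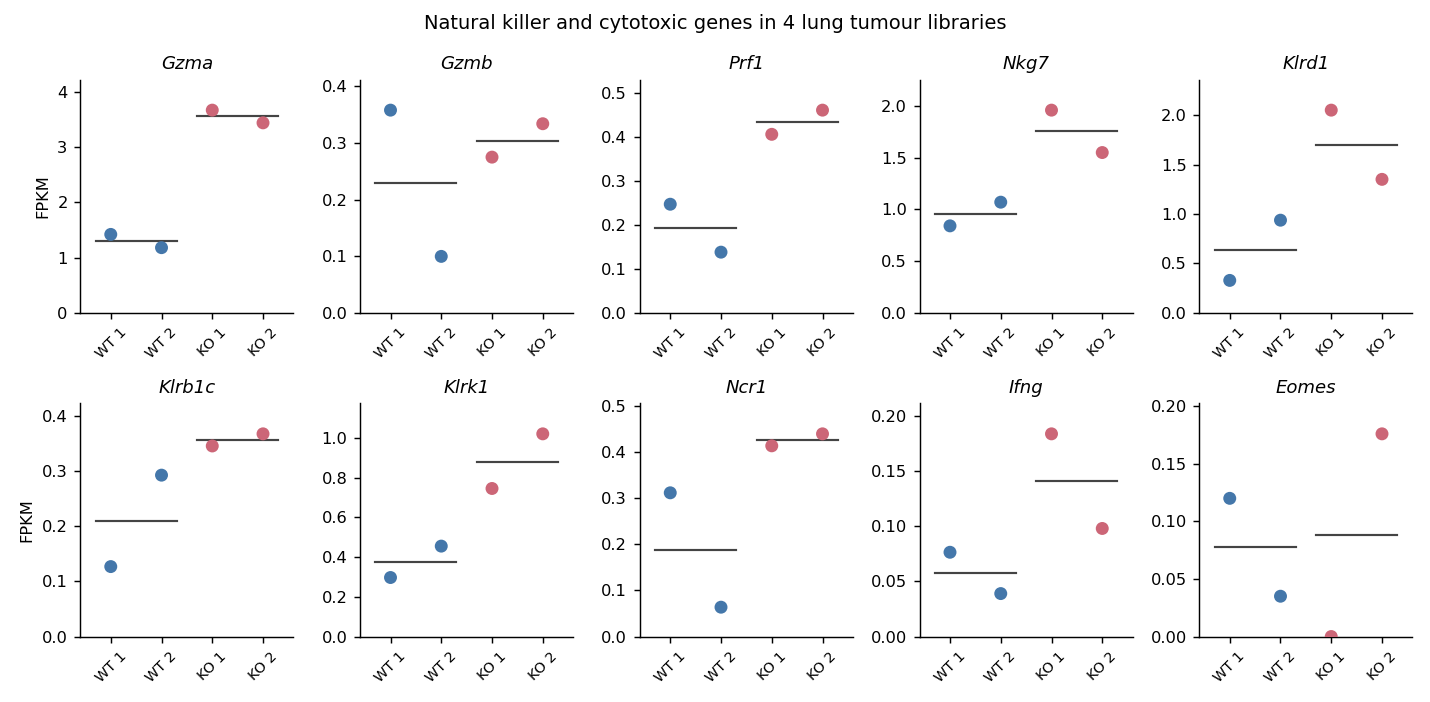
FPKM (y axis, from 0, a separate scale for each gene) of the 10 genes in wild type 1 and 2 (blue) and knockout 1 and 2 (red); horizontal lines are group means of 2 libraries. The groups separate for 8 genes and overlap for Gzmb and Eomes.

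No single gene was called. Only Gzma, Nkg7 and Klrd1 reached the limit for testing, which was 1 FPKM or more in any 2 libraries, and Klrd1 did so through its knockout libraries alone. A call is a Benjamini-Hochberg adjusted p under 0.05 in limma on log2(FPKM + 1), and 0 of the 3 tested genes were called, against 0.0761% of 13147 tested genes called as higher and 0.114% in either direction. Limma's unadjusted p was under 0.05 for all 3, where 8.36% of tested genes were higher at that level. That count of 3 was 1 with quantile scaling and 2 with the replicate number as a block. Because Klrd1 passed the limit through its knockout libraries alone, the count is a description. Limma-voom on the recovered reads also called 0 of 3, with 3 at an unadjusted p under 0.05. The remaining 7 genes were measured below the limit. Their values are therefore given with read counts and counting intervals, which cover the error of counting reads and not the spread between mice.

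Gzma encodes granzyme A, a trypsin-like protease of the granules (chromosome 13, 113093825 to 113100981, minus strand). It stood at 1.42 and 1.18 FPKM in wild type 1 and 2 and at 3.67 and 3.44 FPKM in knockout 1 and 2. The gap between the groups was wide beside the spread within each, 1.3 ± 0.169 against 3.56 ± 0.167 FPKM (SD, n = 2 each). The reads behind these values were 27 and 22 against 58 and 51, which per library total makes a knockout to wild-type ratio of 2.74 (95% exact counting interval 1.94 to 3.91). Its log2 fold change was 0.99 ± 0.15 (SE; limma unadjusted p = 0.000556, adjusted p = 0.102).

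Gzmb, which encodes granzyme B, the protease that cuts after aspartate and activates caspases (chromosome 14, 56258838 to 56262260, minus strand), did not follow Gzma. It stood at 0.358 and 0.0997 FPKM in wild type 1 and 2 and at 0.275 and 0.334 FPKM in knockout 1 and 2, from 11, 3, 7 and 8 reads. Wild type 1 was the highest of the 4 libraries and wild type 2 the lowest. The read ratio was 1.32, and its counting interval of 0.593 to 2.95 includes both no change and the ratio of Gzma. Gzma was 3.96 and 11.84 times as abundant per length as Gzmb in wild type 1 and 2, and 13.38 and 10.3 times in knockout 1 and 2.

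Prf1 encodes perforin (chromosome 10, 61297833 to 61304680). It stood at 0.247 and 0.138 FPKM in wild type 1 and 2 and at 0.406 and 0.461 FPKM in knockout 1 and 2, from 11, 6, 15 and 16 reads. The groups did not overlap, and the read ratio was 2.24 with a counting interval of 1.2 to 4.32. Nkg7 encodes a granule membrane protein needed for their release (chromosome 7, 43437073 to 43438249). It stood at 0.841 and 1.07 FPKM in wild type 1 and 2 and at 1.96 and 1.55 FPKM in knockout 1 and 2, from 16, 20, 31 and 23 reads. Its read ratio was 1.84 (1.19 to 2.90), with a log2 fold change of 0.49 ± 0.17 (SE; limma adjusted p = 0.276).

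The 4 receptor genes all lay higher in the knockout libraries, with different margins. Klrd1 encodes CD94, the shared partner of the NKG2 receptors that read the MHC molecule Qa-1 (chromosome 6, 129591782 to 129598775). It stood at 0.328 and 0.937 FPKM in wild type 1 and 2 and at 2.05 and 1.35 FPKM in knockout 1 and 2, from 5, 14, 26 and 16 reads. Wild type 2 lay closer to knockout 2 than to wild type 1. The log2 fold change of 0.74 ± 0.25 (SE; limma adjusted p = 0.263) was 0.47 without wild type 1, whose 5 reads were the fewest, and 1.01 without wild type 2.

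Klrk1 encodes NKG2D, the activating receptor for stress ligands (chromosome 6, 129610323 to 129623864, minus strand). It stood at 0.297 and 0.455 FPKM in wild type 1 and 2 and at 0.745 and 1.02 FPKM in knockout 1 and 2. The groups did not overlap, and at least 12, 18, 25 and 32 reads lay behind them, a ratio of 2.34 (counting interval 1.48 to 3.77). Klrb1c encodes NK1.1 (chromosome 6, 128778485 to 128789215, minus strand), an antigen whose antibody does not stain Balb/c cells. It stood at 0.127 and 0.293 FPKM in wild type 1 and 2 and at 0.346 and 0.368 FPKM in knockout 1 and 2, from at least 4, 9, 9 and 9 reads. Wild type 2 and both knockout libraries thus held the same number of reads, and the separation of the groups came from the scaling to library totals.

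Ncr1 encodes NKp46, the receptor most specific to natural killer cells and related innate lymphocytes (chromosome 7, 4337724 to 4345164). It stood at 0.312 and 0.0637 FPKM in wild type 1 and 2 and at 0.414 and 0.440 FPKM in knockout 1 and 2, from 10, 2, 11 and 11 reads. Wild type 1 lay close to the knockout libraries and wild type 2 far below, with a ratio of 2.25 (counting interval 1.07 to 5.0). Its log2 difference of 0.27 was 0.12 without wild type 2, whose 2 reads were the fewest. The build named in the submitters' processing notes, mm10, is C57BL/6J sequence, while the mice were Balb/c, and the Klr gene cluster on chromosome 6 differs between these strains. Klra8, which Balb/c mice lack, was listed at 0 in all 4 libraries, as were Klra4, Klra6, Klra9 and Klrb1 (named after their values were seen).

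Ifng and Eomes were at the edge of detection. Ifng, which encodes interferon-gamma (chromosome 10, 118441046 to 118445892), stood at 0.0765 and 0.0390 FPKM in wild type 1 and 2 and at 0.184 and 0.0981 FPKM in knockout 1 and 2. These values come from 2, 1, 4 and 2 reads, and the ratio of 2.46 has a counting interval of 0.525 to 15.2, so that no difference was detectable at this depth. Eomes, which encodes a T-box factor of natural killer cells and CD8 T cells (chromosome 9, 118478212 to 118486132), stood at 0.120 and 0.0350 FPKM in wild type 1 and 2, from 7 and 2 reads. It had 0 reads in knockout 1, which allows up to 0.0620 FPKM (3 reads), and 8 reads, or 0.176 FPKM, in knockout 2. The knockout libraries thus held both the lowest and the highest value of Eomes.

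**Figure D2:**
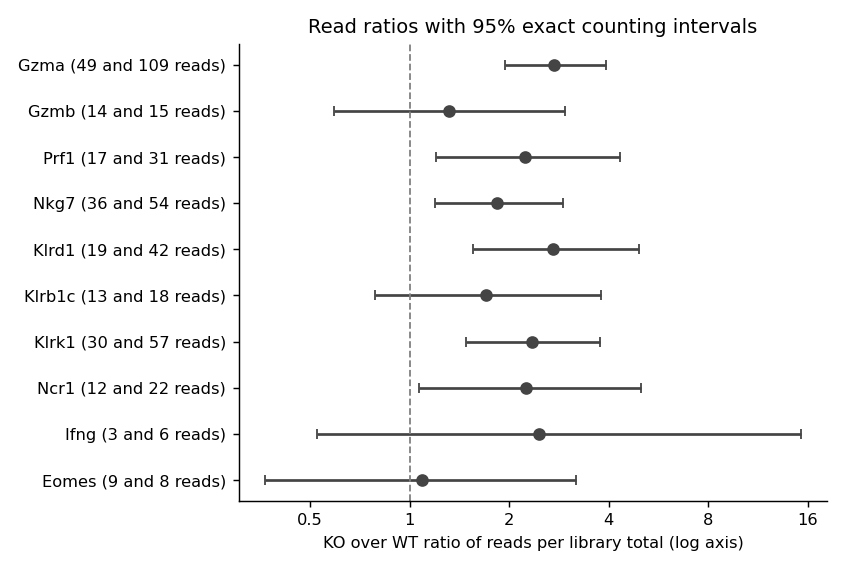
Ratio of knockout to wild-type reads per library total (x axis, log scale) for each of the 10 genes, with 95% exact counting intervals as bars and the summed wild-type and knockout reads beside each name. The interval lies above 1 for 6 genes (Gzma, Prf1, Nkg7, Klrd1, Klrk1 and Ncr1) and includes 1 for Gzmb, Klrb1c, Ifng and Eomes. The intervals hold counting error only, and the share of all genes with such an interval was not computed, so the count of 6 is a description.

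With no limit on low values, all 10 genes could be tested, and limma called 0 of them. Gzma, Prf1, Nkg7, Klrd1 and Klrk1 had an unadjusted p under 0.05 there, where 6.76% of the 21601 genes were higher at that level. Limma's adjusted p in that fit lay between 0.329 for Gzma and 0.969 for Eomes.

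Klrk1 lay higher in both knockout libraries, and 3 of the 4 tested genes for its ligands lay lower in both, with 0 of them called. The ligands are MHC-like surface proteins that stressed or transformed cells display. H60b stood at 42.0 and 39.2 FPKM in wild type 1 and 2 and at 28.3 and 22.9 FPKM in knockout 1 and 2, with a log2 fold change of -0.65 ± 0.13 (SE; limma adjusted p = 0.140). Raet1e, another ligand gene, went with it at 6.79 and 6.85 against 4.49 and 4.13 FPKM (-0.56 ± 0.13; limma adjusted p = 0.162), as did Raet1d at 7.98 and 6.82 against 5.61 and 5.49 FPKM (-0.36 ± 0.13; limma adjusted p = 0.293). In all 3 genes both knockout libraries lay below both wild-type libraries, as in 25.4% of tested genes. Ulbp1, the remaining ligand tested, did not separate the groups, at 1.91 and 1.95 against 2.02 and 1.81 FPKM.

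Of the 4 ligand genes tested, limma called 0, as did limma-voom, and at an unadjusted p under 0.05 limma had 3 of them, each lower, where 7.01% of tested genes were. Their median log2 fold change was -0.46, beside -0.004 over all tested genes. H60c, below the testing limit, was lower too, at 33, 34, 12 and 21 reads in wild type 1 and 2 and knockout 1 and 2 (ratio 0.606, counting interval 0.387 to 0.932). Hcst, which encodes DAP10, the adaptor that carries the NKG2D signal, stood at 3.80 and 2.59 FPKM in wild type 1 and 2 and at 6.37 and 5.28 FPKM in knockout 1 and 2 (log2 fold change 0.71 ± 0.19; limma adjusted p = 0.197). Raet1a, Raet1b, Raet1c and H60a had no row under these names. The ligand genes are similar to one another, so that shared reads may have been split between those measured. The build is C57BL/6J sequence and the mice were Balb/c. Whether reads of other ligand genes were placed on Raet1d, Raet1e or H60b was not tested. The gene models of the 3 lower ligands also overlap on the same strand, with 133 exon bases shared by Raet1e and H60b and 363 by Raet1e and Raet1d, so that their counts may not be separate measurements.

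**Figure D3:**
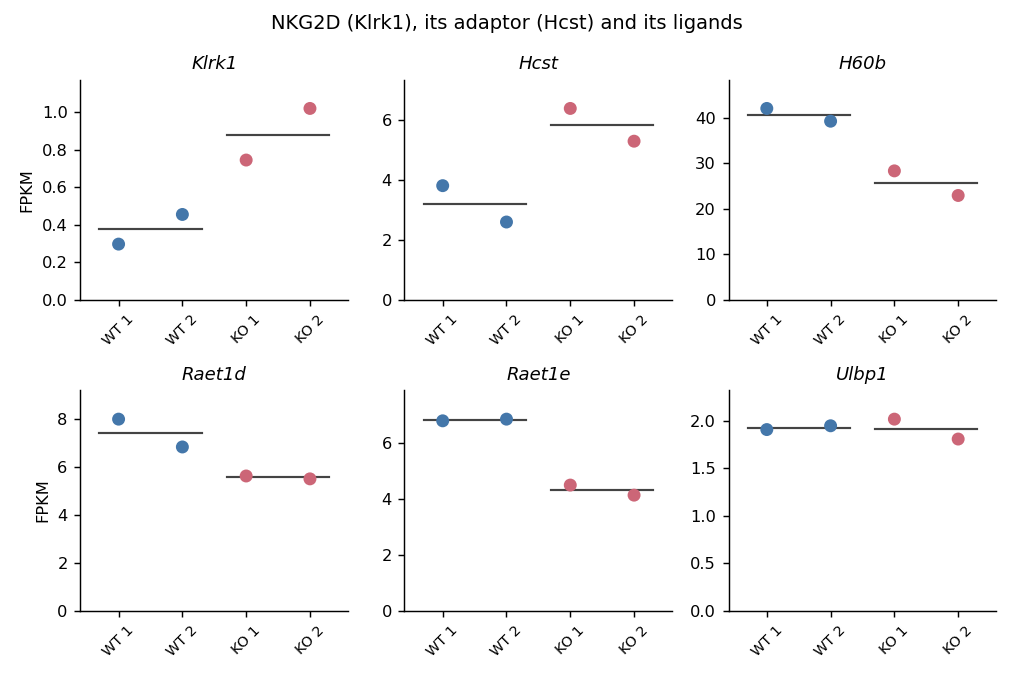
FPKM (y axis, from 0, a separate scale for each gene) of the receptor gene Klrk1, its adaptor gene Hcst and 4 ligand genes in wild type 1 and 2 (blue) and knockout 1 and 2 (red); lines are group means of 2 libraries. Klrk1 and Hcst are higher in both knockout libraries, H60b, Raet1d and Raet1e are lower, and Ulbp1 overlaps.

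Lists of genes around the killing machinery gave 0 calls in limma and 0 in limma-voom. At an unadjusted p under 0.05, limma had 8.36% of all tested genes higher and 7.01% lower. Of 16 other granule and death-ligand genes, 6 were tested, with 2 at a limma unadjusted p under 0.05 (both higher) and a median log2 fold change of 0.28. Srgn, which encodes the proteoglycan serglycin that packs granules in many blood cells, stood at 14.8 and 13.0 FPKM in wild type 1 and 2 and at 31.1 and 49.4 FPKM in knockout 1 and 2, with an adjusted p of 0.102 in limma. Ctsw, a cathepsin of cytotoxic lymphocytes, stood at 1.95 and 2.18 against 3.84 and 3.32 FPKM (limma adjusted p = 0.193). Ctsc, the protease that activates granzymes, lay the other way, at 755 and 679 against 650 and 551 FPKM (limma adjusted p = 0.480). Granzyme genes beyond Gzma and Gzmb, named after their values were seen, did not separate the groups. Gzme stood at 0.65 and 4.29 FPKM in wild type 1 and 2 and 2.41 and 1.54 FPKM in knockout 1 and 2, with the lowest and the highest value both in wild type. Gzmk had 1, 6, 5 and 1 reads in wild type 1 and 2 and knockout 1 and 2, Gzmm had 9, 6, 9 and 3, Gzmc had 1 read in all, and Gzmd, Gzmf, Gzmg and Gzmn were listed at 0. Gzmc to Gzmg and Gzmn are close copies of one another, so that reads may have been split or dropped among them.

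The release machinery, shared by many secretory cells, was present throughout. Of 7 such genes tested, 0 had a limma unadjusted p under 0.05, and the median log2 fold change was -0.05. Stx11, a syntaxin that cytotoxic cells need for granule fusion, stood at 1.68 and 1.90 against 2.27 and 2.69 FPKM, and its partner Stxbp2 at 296 and 310 against 295 and 290 FPKM.

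Among receptor genes beyond the 10, 34 of 35 listed names were in the table and 7 were tested. Their median log2 fold change was 0.20. At a limma unadjusted p under 0.05 there was 1 gene, higher, as were 8.36% of all tested genes. That gene was Fcgr3, an activating receptor for antibodies carried by natural killer and myeloid cells, at 26.8 and 28.4 against 36.6 and 33.0 FPKM (limma adjusted p = 0.264). Il2rb, the receptor chain for IL-2 and IL-15, stood at 1.31 and 0.822 against 1.55 and 2.07 FPKM, and Slamf6, tested through its knockout libraries alone, at 0.699 and 0.463 against 1.21 and 1.02 FPKM. Over all 34, tested or not, 15 lay higher in both knockout libraries and 0 lower, where 22.4% and 19.3% of all genes above 0 did, and 5 of the 34 were at 0 in every library. Among those below the limit, and named after their values were seen, Cd96 had 8 and 10 reads in wild type 1 and 2 and 32 and 16 in knockout 1 and 2, and Cd226 had 9 and 5 against 15 and 12. Both encode receptors for nectin-family ligands, as does Tigit, which had 1 and 0 against 6 and 8 reads. Klrc1, an NKG2 receptor gene, did not go with them, at 7 and 6 against 4 and 5 reads. Its groups overlapped, and its read ratio was 0.851 (counting interval 0.321 to 2.15).

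Signalling adaptors and kinases had 12 tested genes, with a median log2 fold change of 0.35. At limma's unadjusted p under 0.05, 6 of them were higher, as were 8.36% of all tested genes. Lat, the scaffold of T cell receptor signalling, stood at 1.42 and 1.18 FPKM in wild type 1 and 2 and at 3.86 and 3.01 FPKM in knockout 1 and 2 (log2 fold change 0.94 ± 0.17; limma adjusted p = 0.120). Lck, the kinase of the same pathway, stood at 3.27 and 2.27 against 4.96 and 6.94 FPKM (0.88 ± 0.21; limma adjusted p = 0.173). Lineage factors had 9 tested genes, 2 of them higher at a limma unadjusted p under 0.05, and a median of 0.23. Gata3, a factor of helper T cells and group 2 innate lymphoid cells, stood at 0.959 and 1.18 against 1.82 and 3.36 FPKM, Nfil3, needed for natural killer cell development, at 7.16 and 7.28 against 9.61 and 10.6, and Zeb2 at 9.06 and 6.5 against 9.26 and 12.3. Tbx21, which encodes T-bet, the partner factor of EOMES, had 14, 0, 8 and 9 reads and overlapping groups (named after its values were seen).

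Cytokines that feed natural killer cells had 8 tested genes and a median of 0.12. Of these, 1 was higher at a limma unadjusted p under 0.05, as were 8.36% of all tested genes. That gene was Il2rg, the common cytokine receptor chain, at 4.53 and 3.99 FPKM in wild type 1 and 2 and 7.81 and 7.34 FPKM in knockout 1 and 2 (log2 fold change 0.71 ± 0.13; limma adjusted p = 0.125). Il15, the survival factor of natural killer cells, stood at 1.31 and 1.61 against 1.87 and 2.45 FPKM, and Il15ra at 8.84 and 10.4 against 10.8 and 10.8. Recruiting chemokines and their receptors had 9 tested genes and a median of 0.54. At a limma unadjusted p under 0.05, 6 were higher and 1 lower, beside 8.36% and 7.01% of all tested genes. Ccl5, a chemokine that cytotoxic lymphocytes make, stood at 1.92 and 1.57 against 5.19 and 3.95 FPKM (1.01 ± 0.17; limma adjusted p = 0.119). Ccl3 stood at 1.93 and 3.38 against 7.41 and 4.33 FPKM and Ccl4 at 0.350 and 0.428 against 1.77 and 1.35 FPKM. Both encode chemokines that attract lymphocytes and myeloid cells. Ccl4, one of the 6, and Cxcr3, at 0.96 and 0.572 against 1.03 and 1.03 FPKM, reached the testing limit through the knockout libraries alone, so that the count of 6 is a description. The lower gene was Cx3cl1, which encodes the membrane-bound chemokine fractalkine, at 28.5 and 41.6 against 25.6 and 23.7 FPKM (named after its values were seen).

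Signalling and target genes of interferon-gamma were better covered than Ifng itself. Of 22 tested genes of its signalling and targets, 5 were higher and 0 lower at a limma unadjusted p under 0.05, with a median log2 fold change of 0.22. Over all tested genes, 8.36% were higher and 7.01% lower at that level. Iigp1, an interferon-inducible GTPase, stood at 4.16 and 3.00 FPKM in wild type 1 and 2 and at 4.87 and 6.10 FPKM in knockout 1 and 2. Gbp4, a guanylate-binding protein, stood at 2.76 and 1.56 against 3.04 and 3.77 FPKM, and the feedback inhibitor Socs1 at 3.41 and 4.33 against 4.38 and 7.67.

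Genes that protect targets or engage other natural killer receptors were also measured. Serpina3g, one of 4 granzyme or protease inhibitors tested, stood at 3.11 and 2.16 FPKM in wild type 1 and 2 and at 4.83 and 17.9 FPKM in knockout 1 and 2, with knockout 2 far above the other libraries. Serpinb6b stood at 26.8 and 32.5 against 35.1 and 43.7 FPKM, and the list, with 2 of 4 at a limma unadjusted p under 0.05, had a median of 0.23. Of 9 tested genes for other ligands, 5 were higher at a limma unadjusted p under 0.05, with a median of 0.31. In both lists the genes at that level were higher, as were 8.36% of all tested genes. Fas, the death receptor, stood at 7.60 and 6.60 against 10.7 and 13.9 FPKM, Clec2d, a ligand of an inhibitory NKR-P1 receptor, at 21.7 and 17.2 against 27.7 and 30.1, and Cd48, the ligand of CD244, at 5.67 and 4.75 against 7.73 and 7.49. Of the 9 other ligand genes, 5 lay higher in both knockout libraries and 2 lower, where 22.7% and 25.4% of tested genes did. The lower ones, named after their values were seen, were Pvr and Nectin3. Pvr stood at 52.0 and 54.2 against 51.4 and 45.5 FPKM, and Nectin3 at 23.9 and 24.7 against 21.0 and 22.2.

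**Figure D4:**
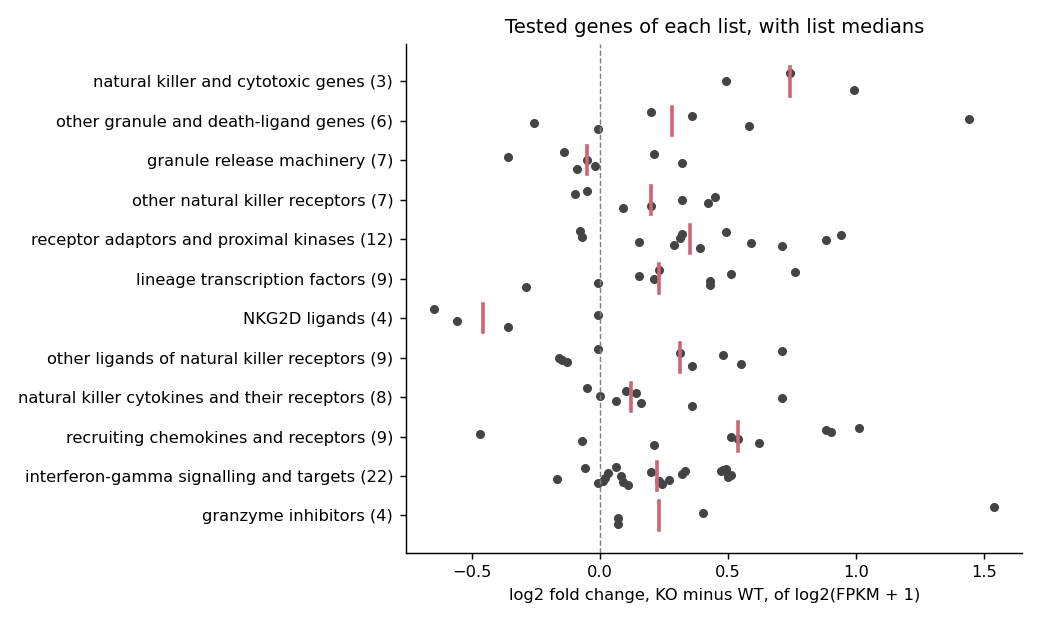
Log2 fold change (x axis, knockout minus wild type, of log2(FPKM + 1)) of each tested gene (points) in 12 lists, with the number tested in brackets and the list median as a red line. The NKG2D ligands have the lowest median (-0.46), the release machinery lies near 0 (-0.05), and no gene shown was called.

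T cell markers were also higher in the knockout libraries, with 0 calls. All 10 T cell markers on the list (Cd3e, Cd3d, Cd3g, Trac, Trbc1, Trbc2, Cd5, Cd6, Cd2 and Cd28) lay higher in both knockout libraries, as did 22.4% of all genes above 0, with sums of 19.2 and 19.8 FPKM in wild type 1 and 2, against 44.1 and 44.8 FPKM in knockout 1 and 2. Of the 7 tested, limma and limma-voom each called 0 (lowest limma adjusted p = 0.0722, for Trbc2). All 7 had a limma unadjusted p under 0.05, where 8.36% of all tested genes were higher at that level. In reads the sums over the 10 markers were 364 and 365 against 657 and 618. A comparison chosen after these values were seen divides the reads of the 10 cytotoxic genes by those of the T cell markers in the same library. It gave 0.288 (95% exact counting interval 0.230 to 0.359) and 0.266 (0.210 to 0.333) in wild type 1 and 2, and 0.283 (0.239 to 0.334) and 0.285 (0.239 to 0.337) in knockout 1 and 2. The 4 ratios thus lay within each other's counting intervals. Reads of markers without an annotated length may be minimums, so these ratios and intervals depend on the lengths fitted.

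**Figure D5:**
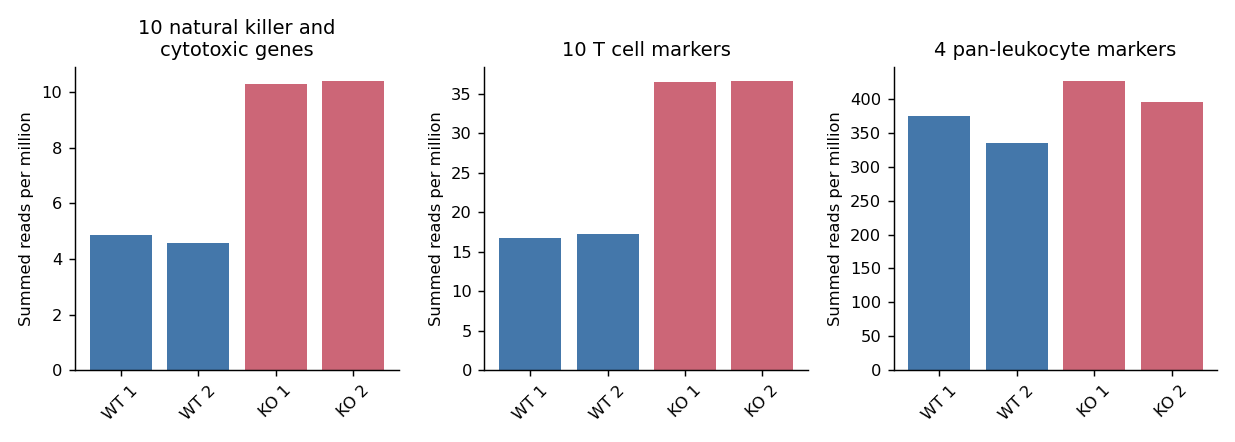
Summed reads per M library reads (y axes, from 0) of the 10 natural killer and cytotoxic genes, of 10 T cell markers and of 4 pan-leukocyte markers in wild type 1 and 2 (blue) and knockout 1 and 2 (red). The first sum stands at 4.85 and 4.57 against 10.3 and 10.4, the T cell sum at 16.8 and 17.2 against 36.5 and 36.6, and the leukocyte sum at 374 and 335 against 426 and 395.

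General leukocyte genes differed less than the T cell markers. Ptprc, which encodes CD45, overlapped, at 21.0 and 16.3 FPKM in wild type 1 and 2 and 19.7 and 19.3 FPKM in knockout 1 and 2. Of 4 pan-leukocyte markers, 3 lay higher in both knockout libraries (Cd53, Laptm5 and Coro1a), as did 22.4% of all genes above 0. Limma had 2 of the 4 at an unadjusted p under 0.05, both higher, as were 8.36% of all tested genes, and called 0. Coro1a stood at 69.0 and 65.2 against 94.4 and 89.4 FPKM. The sum of the 4 was 397 and 367 against 463 and 422 FPKM, with Laptm5 at 296 and 275 against 335 and 299. Relative to the reads of these 4 markers, the 10 cytotoxic genes came to 1.3% and 1.36% in wild type 1 and 2 and to 2.43% and 2.64% in knockout 1 and 2. These percentages also depend on the lengths fitted. CD8 T cell markers were low and higher in the knockout libraries. Cd8a had 12 and 5 reads in wild type 1 and 2 and 12 and 16 in knockout 1 and 2, and Cd8b1 had 7 and 9 against 16 and 13. Of 2 CD4 T cell markers 1 lay higher in both knockout libraries, and they summed to 1.27 and 1.27 against 2.91 and 3.53 FPKM.

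Other cells that can carry granzymes or natural killer receptors were checked in the same way. Over all genes above 0, 22.4% lay higher in both knockout libraries and 19.3% lower, the shares to set beside the counts that follow. Among 4 markers of gamma-delta T cells, 2 lay higher in both knockout libraries. The receptor constant gene Tcrg-C2 stood at 1.01 and 0.562 FPKM in wild type 1 and 2, against 1.44 and 1.88 FPKM in knockout 1 and 2, and Tcrg-C4 had 3 and 2 against 4 and 6 reads. Tcrg-C1 (1.6 and 1.36 against 2.26 and 1.6 FPKM) and Sox13, which other cells also express (18.9 and 23.4 against 20.5 and 21.1 FPKM), overlapped. Of 6 markers of group 2 innate lymphoid cells, 3 lay higher in both knockout libraries (Il1rl1, Gata3 and Il13), with knockout 2 well above the rest. Il1rl1, the IL-33 receptor gene, had 14, 14, 20 and 129 reads in wild type 1 and 2 and knockout 1 and 2, and Il13 had 0, 0, 1 and 28. Rora overlapped, at 23.7 and 19.7 against 15.5 and 20.3 FPKM. Of 8 mast cell markers, 3 lay higher in both knockout libraries (Cpa3 at 10 and 13 against 32 and 17 reads, Cma1 at 1 and 2 against 6 and 3, Mcpt4 at 0 and 1 against 3 and 3). Kit, which other cells also express, overlapped at 9.21 and 4.26 against 6.37 and 9.21 FPKM. The tryptase gene Tpsab1 had 10 and 46 against 13 and 11 reads. Its groups overlapped, and its read ratio lay the other way, at 0.527 (counting interval 0.312 to 0.864). The tryptase gene Tpsb2 had 1 read in wild type 1 and was at 0 in the other libraries. The 3 basophil markers summed to 0.476 and 0.751 against 0.366 and 0.444 FPKM, and the 5 markers of plasmacytoid dendritic cells to 64.5 and 55.6 against 71.4 and 78.6, with 4 of 5 higher.

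Neutrophil and red cell markers were also higher in the knockout libraries. The 7 neutrophil markers summed to 653 and 585 reads in wild type 1 and 2, against 1494 and 1691 reads in knockout 1 and 2. For 6 of these markers each knockout value exceeded each wild-type value, a pattern found for 22.4% of all genes above 0. Limma called 3 of the 7 as higher (S100a8, S100a9 and Csf3r), beside 0.0761% of 13147 tested genes. Limma-voom called 2 of the 7. The 6 erythroid markers were all higher, at 247 and 490 against 1190 and 1090 FPKM. The 6 markers of alveolar type 2 cells summed to 104000 and 105000 against 117000 and 101000 FPKM. The part of T cells, blood or any other cell type in the values of the 10 genes was not tested.

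The tested genes whose pattern was most like that of Gzma, Nkg7 and Klrd1 were found by distance between centred log2(FPKM + 1) values over the 4 libraries. The mean profile of the 3 was -0.46 and -0.28 in wild type 1 and 2 and 0.48 and 0.26 in knockout 1 and 2. Nearest was Spib, which encodes an ETS-family factor of B cells and plasmacytoid dendritic cells, at a distance of 0.0391 and with 0.263 and 0.486 against 1.44 and 1.14 FPKM. Spib and Klrd1 reached the testing limit through the knockout libraries alone, so that this ranking is a description. Next came the mitochondrial genes mt-Nd5 (0.0468) and mt-Nd6 (0.0873), then Gm10146 (0.101) and mt-Nd4 (0.104). The 3 mitochondrial genes ranged from 693 to 894 FPKM in wild type and from 1180 to 1510 FPKM in knockout, and any part of what set them in the values of the 10 genes was not tested.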

How the data were processed

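The authors deposited one table of FPKM per gene for the 4 libraries. As build mm10, and as tools TopHat2 and DESeq2, were listed with neither role nor version, per the submitters' processing notes. For the counter, annotation, gene lengths, filters and strand use, nothing is given in the sources used here. Counts of overlapping genes therefore cannot be told apart: Klrb1c shares 413 exon bases with Gm44511 and Ifng 336 with Gm49751 (same strand), and Eomes 118 with Gm33460 (other strand). Gene positions are GENCODE's on GRCm38, from 1.

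Whole reads were recovered for 21601 genes as the values that made all 4 libraries whole at 1 gene length, within 0.0002 reads and 2e-08 of each count. Longer lengths also fitted Klrk1 and Klrb1c, whose reads are minimums. Limma 3.58.1 (R 4.3.3) was fitted to log2(FPKM + 1) with an intensity trend, for the 13147 genes at 1 FPKM or above in any 2 libraries, with 2 residual degrees of freedom, and was tested on simulated data. This scale understates fold changes of low genes. Counting intervals are exact (Clopper-Pearson, 95%), and reads without molecular identifiers give counting error only.

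The 10 genes and the lists were chosen with earlier results of these data known. From each list, called genes and up to 3 tested genes with the largest fold change among those with separate groups were named. P-values measure the spread between these 4 samples, each a pool of tumours. Alternatives were quantile and median-of-ratios scaling, no trend, other limits and pseudocounts, a replicate block, leaving out each library, limma-voom and an adjusted p under 0.1.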

Additional observations from a re-analysis of the deposited data

How the results depend on the processing

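The count of called genes over the whole table, 15 (10 higher and 5 lower), changed by more than 1.5 times under several settings. It was 1 with no limit on low values, 5 with an FPKM limit of 0.1, 8 with limma-voom and 65 at an adjusted p under 0.1. With quantile scaling it was 11, 6 higher and 5 lower, and with median-of-ratios scaling 13, 8 higher and 5 lower. Leaving out each library gave 10 to 221 calls, the most without knockout 1, and 49 without knockout 2. Of the 10 natural killer and cytotoxic genes 0 were called under any of these settings, and at an FPKM limit of 5 none of them was tested. With the replicate number as a block there were 69 calls, 0 of them among the 10. Deviations of same-numbered libraries correlated at -0.306 across genes. With 2 libraries per genotype, that single value cannot show whether the numbers pair the samples. With the numbers crossed, a setting added after the data were seen, there were 848 calls, 1 of them among the 10 (Gzma, limma adjusted p = 0.0217).

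The count of genes higher in both knockout libraries was 8 of 10 (22.4% of all genes above 0). It was 8 with median-of-ratios scaling (23.6%), 6 with quantile scaling (17.8%; Klrb1c and Ifng then overlapped) and 8 to 9 with each library left out (32.1% to 40.2%). Gzmb was lower without wild type 2 and Eomes lower without knockout 2. The settings for this count were added after the data were seen. Limma's adjusted p for Gzma lay between 0.0848 and 0.329 over the settings planned. Without wild type 2 the log2 difference of Gzmb was -0.06 instead of 0.09, so its direction depends on that library's 3 reads, and that of Eomes was below 0 without wild type 2 (-0.05) and without knockout 2 (-0.11). Depth limits Ifng and Eomes most, with at most 4 and 8 reads in a library.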
